A study of Mus musculus with 26 samples.

Results

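Mature CD8 single-positive (CD8SP) thymocytes of 2 T cell receptor (TCR) transgenic mouse lines, F5 and TG6, were compared by RNA sequencing over all genes whose normalized count reached 10 in 2 or more libraries. The comparison was between 6 of the 26 libraries of the series, 3 per line. All 26 entered the level filter and the fit, which tested 16372 of the 46517 gene symbols in the table. Both lines carry a rearranged receptor restricted by class I MHC, and the study ranks F5 as intermediate and TG6 as low in self-reactivity. F5 animals were F5tg Rag1KO on C57/BL6. TG6 animals were TG6tg H2b/d, from C57/BL6 crossed to B6.C-H2d/bByJ, with no Rag deletion given in the labels. In all 6 libraries the cells had been sorted as CD4-CD8+CXCR4-CCR7+. The lines therefore differed in receptor, Rag status and MHC haplotype together, and these cannot be told apart. Mice were 3 to 10 weeks old outside the neonatal experiments, per the methods, and the age and sex behind each library were not found in the sources used here. Libraries of a group are biological replicates per the methods, and the labels do not say whether any came from 1 litter.

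A CD8SP thymocyte has passed positive selection, in which its receptor binds self peptide on class I MHC and the cell gives up CD4. It then matures in the thymic medulla, where it lowers immature markers such as Cd24a and gains Il7r, class I MHC, S1pr1 and Klf2 before leaving for the blood. Type I interferon, made in the medulla without infection, acts on maturing thymocytes through Ifnar1 and Ifnar2. That receptor signals through transcription factors, Stat2 and Irf9 among them, which bind interferon-stimulated response elements near their target genes.

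TG6 libraries held higher levels of interferon-stimulated genes, class I MHC and peptide-loading genes, and part of the maturation programme, and F5 libraries held higher Lck, Tcf7 and Satb1. In all, 1087 of 16372 genes (6.64%) were called at an adjusted p under 0.05 in limma. F5 was higher for 350 of them (2.14% of genes tested) and TG6 for 737 (4.50%). At 2-fold or more, F5 was higher for 142 genes and TG6 for 505. The median difference over all genes tested was -0.01 on the log2(normalized count + 1) scale, on which all differences here are given as F5 minus TG6. Of the 737 genes, 86 were T cell receptor or immunoglobulin segments, against 4 of the 350. When only the 6 libraries compared were fitted, 346 genes were called, 39 higher in F5 and 307 in TG6.

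**Figure D1:**
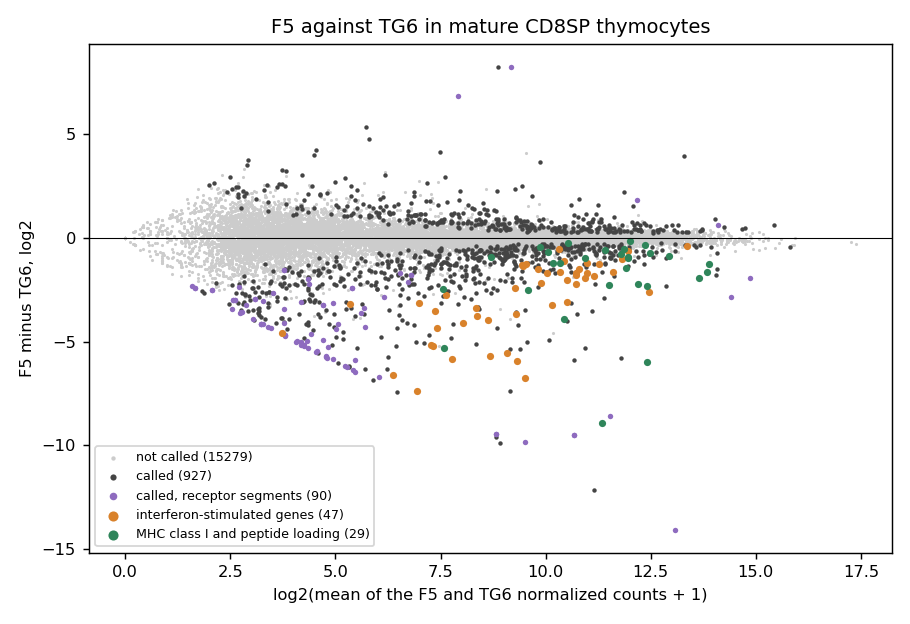
Difference of each of the 16372 genes between F5 and TG6 mature CD8SP thymocytes (y axis, log2, positive where F5 is higher) against its level (x axis, log2 of the mean of both groups + 1). Called genes are black, called receptor segments purple, all 47 interferon-stimulated genes tested orange and all 29 class I MHC and peptide-loading genes tested green, and nearly all of the orange and green points lie under 0.

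TG6 replicate 3 stood apart from the other TG6 libraries. Its correlation with them across genes was 0.953 and 0.950, whereas replicates 1 and 2 correlated at 0.977. The spread of its genes around the group mean was 0.664 (SD, log2), against 0.438 to 0.521 in the other 5 libraries. Without it, 1412 genes (8.62%) were called, 587 higher in F5 (3.59%) and 825 higher in TG6 (5.04%). Both fits shared 865 calls with the same direction, 238 higher in F5 and 627 higher in TG6, and none were called in opposite directions. Totals of normalized counts ranged from 16555970 to 18095503 over the 6 libraries. The number of reads behind a value is unknown, since these totals are already scaled.

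TG6 replicate 3 held higher levels of immature and dividing-cell genes than the other TG6 libraries, and their part in the results was not tested. Summed counts of 36 G2/M and mitosis genes were 31610 and 34933 in TG6 replicates 1 and 2 and 117028 in replicate 3. In F5 they were 35484, 97723 and 54066, so F5 replicate 2 was also high. All 36 of these genes and all 40 of the DNA replication and S phase genes were higher in TG6 replicate 3 than in either other TG6 library. Neither list held a called gene with all libraries. Without TG6 replicate 3 only Prim2 and Rrm1 were called, both among the 40 S phase genes and both higher in F5 (3.59% of all genes).

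**Figure D2:**
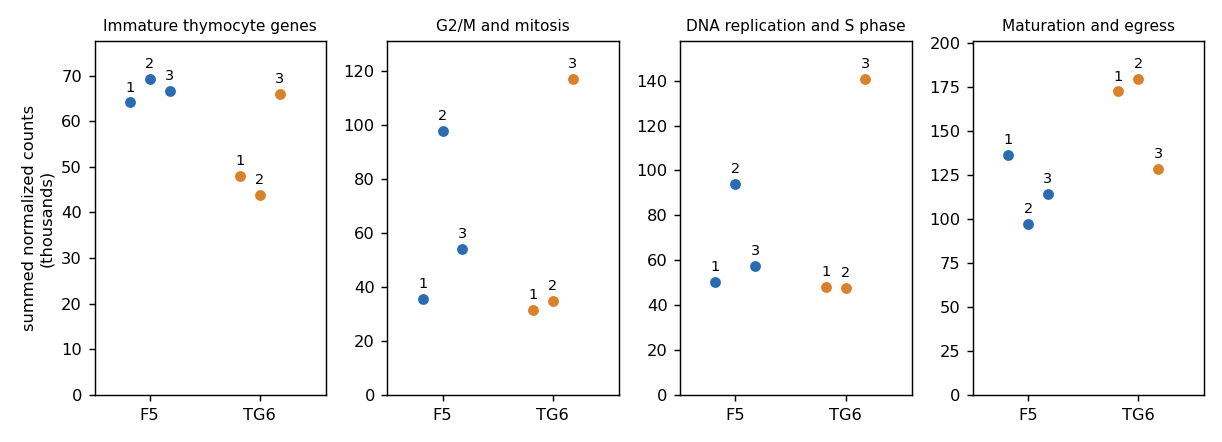
Summed normalized counts (y axes, in units of 1000, from 0) of 4 gene lists in the 3 F5 and 3 TG6 mature CD8SP libraries, with the replicate number over each point. TG6 replicate 3 lies among or above the F5 libraries in the first 3 panels, and among them and under the other TG6 libraries for maturation and egress genes.

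Calls among immature thymocyte genes depended on that library. With all libraries, 1 of 15 was called, Satb1, a chromatin organizer of thymocytes, and it was higher in F5 (2.14% of all genes). Without TG6 replicate 3, 7 were called, all higher in F5 (3.59% of all genes), and the median difference went from 0.49 to 1.22. Cd24a, a surface marker lost with maturity, was at 2846, 3204 and 2179 in F5 and at 905, 814 and 4540 in TG6. Its difference was 0.86 ± 0.41 (SE, adjusted p = 0.27, limma) with all libraries and 1.66 ± 0.24 (adjusted p = 5.31e-05) without TG6 replicate 3. Dntt (terminal transferase), Arpp21, Aqp11 and Tcf12 were called in the same way only once that library was left out. Over the 11 genes that the study names as preselection genes, none were called with all libraries, and 3 without TG6 replicate 3, 2 of them higher in F5 (3.59% of all genes), Glcci1 among them, and Slc6a19 higher in TG6 (5.04%). That list was chosen by the study on microarrays of other thymocytes. At the early stage 7 of the 11 were called higher in TG6 (3.35% of all genes) and none in F5, with a median of -0.76. Between the early and mature stages the difference moved toward F5 for 4 of them (1.35% of all genes). The 15 immature thymocyte genes had a median of -0.58 at the early stage, with 1 called, higher in TG6 (3.35% of all genes).

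The sorted population was checked against its markers. Cd8a was at 24422, 26304 and 29840 in F5 and at 31943, 30826 and 21298 in TG6, and Cd8b1 and Cd3e were also high in every library. Cd4 ranged from 211 to 350 in F5 and from 77.1 to 461 in TG6, with its highest value in TG6 replicate 3. Klf2, S1pr1, Runx3 and Ccr7 were all present at 2384 normalized counts or more in each library, and none was called. Ccr7, used in the sort, was at 10870, 3958 and 5767 in F5 and at 11852, 12719 and 11602 in TG6 (adjusted p = 0.123, limma). Cxcr4 transcript was present at 1462 to 4031 in F5 and 1809 to 2067 in TG6, although the cells had been sorted as negative for the protein.

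Rag1, the gene inactivated in the F5 line, was counted at 704, 2698 and 1896 in F5 and at 696, 620 and 5265 in TG6. The groups overlapped, and the counts per symbol do not show which part of the gene the reads came from. Receptor segments did separate the lines. Of 91 TCR alpha variable segments tested, TG6 was higher for 76 (4.50% of all genes) and F5 for 1 (2.14%), and their summed counts were 1131 to 1862 in F5 and 16181 to 19060 in TG6.

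Of 129 segments listed, 91 had passed the level filter, so those tested lean to segments that are high in some line. The segments with the highest levels differed between the lines. Trbv1 was listed at 0 in the 3 F5 libraries and at 16874, 15973 and 18828 in TG6, and Trav6-7-dv9 did not pass 17.2 in F5 and was at 5633 to 6271 in TG6. In F5, Trbv16 was at 283, 575 and 582 and Trav6-1 at 829, 1230 and 1392, and neither passed 4.07 in TG6. Segments of near-identical sequence, such as Trav6n-7 and Trav6d-7, had equal values in each library and share reads. Among constant regions, Trac was at 4529, 5489 and 5856 in F5 and 41670, 38257 and 34879 in TG6. Trdc, the delta constant region that lies inside the alpha locus, was higher in F5, at 7239, 7240 and 6760 against 1544, 1603 and 3143.

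Interferon-stimulated genes gave the most uniform difference of the lists examined. Of 47 tested (of 48 listed), 45 were called and all 45 were higher in TG6, against 4.50% of all genes tested. The median difference was -2.40. With TG6 replicate 3 left out, 46 were called in the same direction (5.04% of all genes) and the median was -2.49. For 43 of the 47 the F5 and TG6 libraries did not overlap, which held in this direction for 10.2% of all genes. Sp100 and Gbp6 were not called with all libraries. The 47 genes lay on 14 chromosomes.

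**Figure D3:**
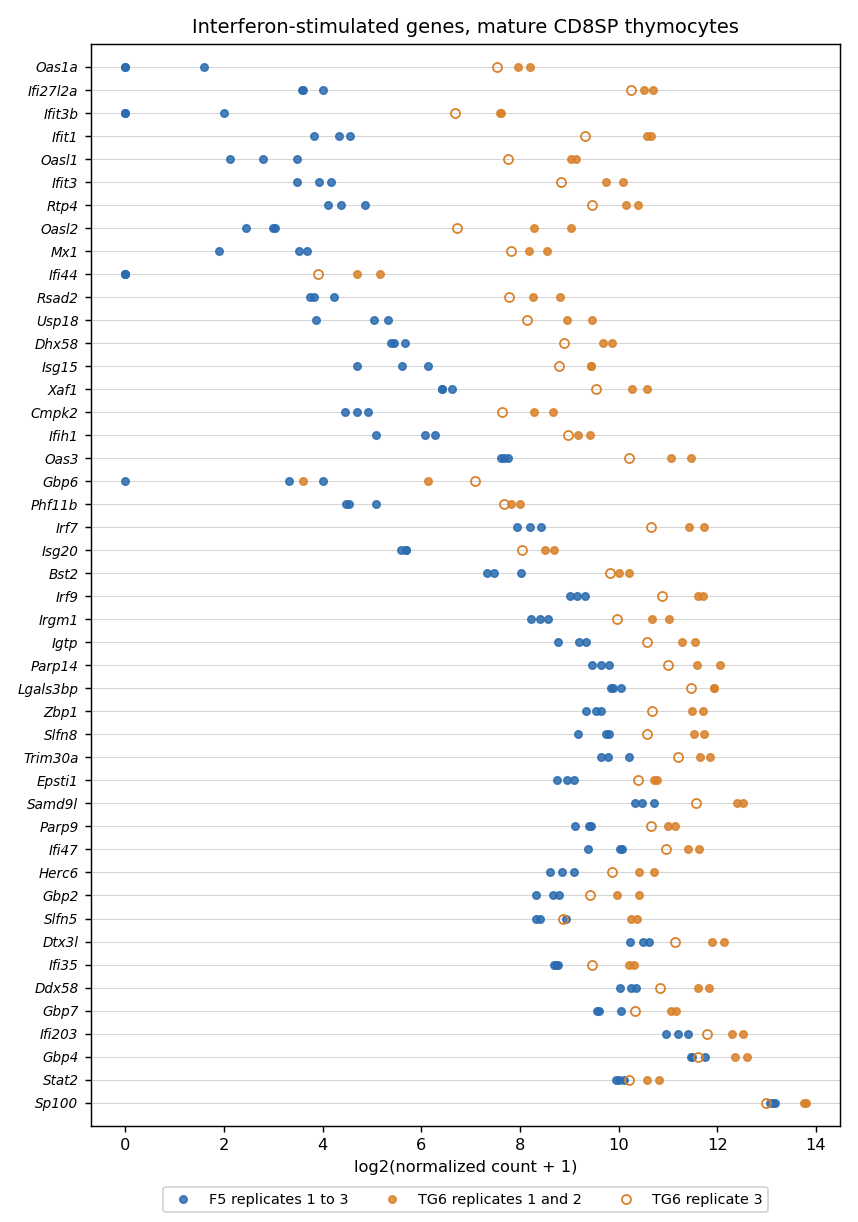
Level of 46 of the 47 interferon-stimulated genes tested (x axis, log2 of the normalized count + 1) in every F5 library (blue) and TG6 library (orange, replicate 3 open), ordered by their difference with the largest at the top. In most rows the open symbol lies between the F5 points and the other TG6 points.

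Genes for effector proteins of the antiviral response were higher in TG6. Ifit1, which binds foreign RNA, was at 13.1, 22.7 and 19.1 in F5 and at 1527, 1609 and 634 in TG6. Each TG6 library was far above each F5 library, and the TG6 mean was 68.7-fold the F5 mean (log2 difference -5.94 ± 0.34 SE, adjusted p = 3.27e-11, limma). Oas1a, an oligoadenylate synthetase that activates RNase L, was at 2.02, 0 and 0 in F5 and at 247, 296 and 183 in TG6. Rsad2, the antiviral enzyme viperin, was at 13.2, 12.4 and 17.8 against 308, 445 and 217. Isg15, a ubiquitin-like modifier, was at 47.5, 69.0 and 25.1 in F5 and 695, 696 and 444 in TG6. Ifi27l2a was at 11.0 to 15.1 in F5 and 1224 to 1664 in TG6. In all 5 of these genes TG6 replicate 3 had the lowest TG6 value and still lay above every F5 value.

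The factors that relay the interferon signal were higher in TG6 as well. Irf7, a transcription factor that is itself induced by interferon, was at 343, 243 and 295 in F5 and 2761, 3400 and 1614 in TG6 (log2 difference -3.08 ± 0.20 SE, adjusted p = 2.29e-10, limma). Irf9 was 4.83-fold higher in TG6 and Stat2 1.44-fold. The receptor chains were not called. Ifnar1 was at 2330 to 3125 in F5 and 2578 to 2900 in TG6 (adjusted p = 0.975), and Ifnar2 at 766 to 1076 and 992 to 1106 (adjusted p = 0.703).

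TG6 replicate 3 was the lowest TG6 library for 46 of the 47 genes, with a median of -0.80 (log2) against the mean of the other 2. It was above every F5 library for 44. Slfn5 was one of the 3 exceptions, at 336, 321 and 484 in F5 and 1219, 1331 and 468 in TG6, and it was called with that library (-1.29 ± 0.28 SE, adjusted p = 0.00417, limma) and without it. In OT-1 mature CD8SP thymocytes, OT-1tg Rag2KO cells of high self-reactivity, the mean lay between those of F5 and TG6 for 41 of the 47 genes. Ifit1 had a mean of 439 there.

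Promoters of these genes were searched for the core of the interferon-stimulated response element, GAAANNGAAA on either strand, in the window from 250 bases before to 50 bases after the start. RefSeq promoter sequences (GRCm38.p6) were found for 36 of the 47 genes, and 20 of the 36 (55.6%) held a match, against 1079 of 27025 genes (3.99%) in the whole table. Among called genes with a promoter sequence, 74 of 455 higher in TG6 (16.3%) and 6 of 234 higher in F5 (2.56%) held one. Of the 420 higher in TG6 that were not on the interferon list, 54 did (12.9%). A gene with several matches was counted once. A match is a run of letters and was not tested as a bound site.

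Windows of 6 promoters that hold a match are printed as examples. They were chosen by hand, with the values known, from well-known genes of the interferon and class I lists that were called higher in TG6. Each reads 5′ to 3′ on the strand of the gene, with the matches in capitals. They lie at chr19:34640755-34640843 (plus strand, Ifit1), chr19:34583343-34583446 (plus, Ifit3), chr4:156200845-156200926 (minus, Isg15), chr5:120907500-120907575 (minus, Oas1a), chr12:26456533-26456602 (minus, Rsad2) and chr2:122147518-122147587 (plus, B2m).
Ifit1: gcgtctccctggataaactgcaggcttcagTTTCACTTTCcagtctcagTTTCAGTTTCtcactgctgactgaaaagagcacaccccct
Ifit3: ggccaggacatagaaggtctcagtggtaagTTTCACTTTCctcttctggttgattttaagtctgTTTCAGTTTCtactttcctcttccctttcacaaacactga
Isg15: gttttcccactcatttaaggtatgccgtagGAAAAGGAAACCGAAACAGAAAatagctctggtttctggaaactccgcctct
Oas1a: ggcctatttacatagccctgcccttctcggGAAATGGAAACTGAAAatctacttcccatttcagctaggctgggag
Rsad2: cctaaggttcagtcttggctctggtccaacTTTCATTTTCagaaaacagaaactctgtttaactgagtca
B2m: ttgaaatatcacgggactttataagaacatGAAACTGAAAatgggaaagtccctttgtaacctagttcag
Ifit1 and Ifit3 each held 2 separate matches, which in Ifit1 began 104 and 85 bases before the start. In Isg15, 3 matches overlapped, beginning 78 to 66 bases before the start, and in Oas1a 2 overlapped. B2m, the light chain of class I MHC, held 1, beginning 139 bases before its start.

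Class I MHC and peptide-loading genes were higher in TG6. Of 29 tested, 25 were called and all 25 were higher in TG6 (4.50% of all genes), with a median difference of -1.20. Once TG6 replicate 3 was left out, 26 were called and the median was -1.19. H2-K1, a classical class I heavy chain, was at 5469, 5111 and 5100 in F5 and 21960, 24661 and 14616 in TG6, and H2-D1 showed 7358, 6567 and 7259 against 24293, 26956 and 15491. The Qa-2 gene H2-Q7 was at 142 to 182 in F5 and 7547 to 14394 in TG6. TG6 cells carry a d haplotype beside the b haplotype on which the mm10 reference is based, and class I genes have near-identical copies, so how reads were divided among H2 genes is uncertain.

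Class I genes outside the MHC differed in the same direction. On chromosomes other than 17, 8 of 10 list members were called, and on chromosome 17, 17 of 19, all higher in TG6 (4.50% of all genes). B2m was at 8154, 9126 and 8404 in F5 and 26720, 28405 and 10716 in TG6, so that TG6 replicate 3 lay much closer to F5 than the other TG6 libraries did (log2 difference -1.23 ± 0.24 SE, adjusted p = 0.00169, limma). Nlrc5, the transactivator of class I genes on chromosome 8, was at 1704, 1481 and 1654 against 7771, 9981 and 5360. Psme1, a proteasome activator subunit, was 1.70-fold higher in TG6 and Erap1, which trims peptides in the endoplasmic reticulum, 1.48-fold. Inside the MHC on chromosome 17, the peptide transporter gene Tap1 was at 1606, 2348 and 2281 in F5 and 5795, 6767 and 4243 in TG6. Its partner Tap2 was at 3830 to 4060 and 3703 to 4676 and was not called (adjusted p = 0.438), and Tapbpl and Canx were not called either.

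The MHC interval held a higher share of called genes than the rest of its chromosome. Between the first and the last H2 gene tested, at chr17:33974659-37483552, 39 of 151 genes (25.8%) passed the threshold, 35 of them with TG6 higher and 4 with F5 higher. Of the 30 H2 genes in it 20 were higher in TG6 and none in F5, and of the other 121 genes 15 had their higher level in TG6 and 4 in F5. On the rest of chromosome 17, 6.44% of 652 genes were called. Within 5 Mb of Rag1, where the altered allele of F5 lies, 3 of 43 genes were called, all higher in TG6 (Rcn1, D430041D05Rik and Gm13919). That is 6.98% of them, near the 6.64% of all genes, and leaving out TG6 replicate 3 added 1 gene higher in F5.

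Genes of maturation and egress differed in one direction where they differed. Of 34 tested, 15 were called, all higher in TG6 (4.50% of all genes), with a median of -0.52. Without TG6 replicate 3, 16 were called in that direction (5.04% of all genes) and the median was -0.72. Il7r, the receptor for the survival cytokine interleukin-7, was at 105, 35.0 and 222 in F5 and 1162, 1383 and 852 in TG6 (log2 difference -3.55 ± 0.44 SE, adjusted p = 6.15e-06, limma). Bcl2, an inhibitor of cell death that interleukin-7 sustains, was at 1254, 1432 and 2141 against 4362, 4346 and 2755. Ly6c2 was at 9.81 to 16.1 in F5 and 332 to 506 in TG6. Itgae, the alpha chain of the integrin CD103, was 5.03-fold higher in TG6, and the surface proteins Cd52 and Ms4a4b were 1.71-fold and 1.64-fold higher. Slfn1, Plac8, Gimap4 and H2-Q7, which also stands on the class I list, were among the other genes called. The genes that open the way out of the thymus, S1pr1 and Klf2, were not called (adjusted p = 0.902 and 0.905).

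Bcl2l11, which encodes the cell-death protein Bim, a member of the survival and death list, was higher in F5, at 4467, 1849 and 2118 against 998, 938 and 1655 (1.17 ± 0.35 SE, adjusted p = 0.0489, limma). It was called again without TG6 replicate 3 (adjusted p = 0.0194). Of 20 genes on that list, Bcl2 was called higher in TG6 (4.50% of all genes) and 1 gene, Bcl2l11, in F5 (2.14%). Leaving out TG6 replicate 3 gave 1 and 2 (5.04% and 3.59%). Among 27 cytokine receptor and Socs genes, Il7r, Il6ra and Socs3 were higher in TG6 (4.50% of all genes) and none were higher in F5. With TG6 replicate 3 left out, 7 were higher in TG6 (5.04% of all genes), with Il2rg, Il27ra, Tgfbr2 and Jak3 added.

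Effector and innate-like CD8 genes were higher in TG6 where called, most of them at low levels. Of 26 tested, 10 were called and all were higher in TG6 (4.50% of all genes), with a median of -0.70. With a minimum mean of 50, a filter that leaves out genes at low levels, the count was 2, against 515 of all 11016 genes then tested. Once TG6 replicate 3 was left out, 10 were higher in TG6 (5.04% of all genes) and 1 in F5, with a median of -0.81. The chemokines Xcl1 and Ccl5 were listed at 0 in the 3 F5 libraries, and in TG6 Xcl1 was at 42.4, 62.0 and 34.5 and Ccl5 at 25.2, 48.5 and 35.3. The transcription factor Eomes was at 2.48 to 6.72 in F5 and 25.2 to 46.4 in TG6. Prf1, the pore-forming protein of cytotoxic granules, was at 205, 209 and 244 against 502, 545 and 273, and Ctsw, a protease of killer cells, at 1689 to 2209 against 2471 to 4764. Gzma went the other way without TG6 replicate 3, at 478, 1073 and 777 in F5 and 236 and 240 in TG6 (adjusted p = 0.0109, limma). With that library, at 1633, it was not called (adjusted p = 0.558).

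Genes that respond to TCR signals showed no common direction. Of 35 tested, Itm2a and Ubash3b were called higher in F5, 2 genes against 2.14% of all genes. Called higher in TG6 were 4 (Tnfrsf9, Irf4, Izumo1r and Socs3), against 4.50%. The median was -0.12. Without TG6 replicate 3 the counts were again 2 and 4, with Sla in place of Ubash3b. Cd5, whose protein tracks self-reactivity, was at 3515, 5022 and 3912 in F5 and 3302, 2877 and 2952 in TG6. Every F5 value was above every TG6 value, but the difference of 0.43 ± 0.18 (SE) did not pass the threshold (adjusted p = 0.202, limma). Nr4a1, an immediate target of the receptor, was at 6049, 2029 and 2777 in F5 and 1063, 988 and 6859 in TG6. TG6 replicate 3 had the highest value of the 6, and the gene was called neither with it (adjusted p = 0.657) nor without it (adjusted p = 0.128). Tnfrsf9, the costimulatory receptor 4-1BB, did not pass 9.93 in F5 and was at 149, 151 and 205 in TG6.

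Proximal signalling genes were called in both directions, 3 of 28 higher in F5 (2.14% of all genes) and 1 in TG6 (4.50%). Lck, the kinase that starts the receptor signal, was at 22984, 21079 and 25147 in F5 and 15937, 15828 and 15330 in TG6 (0.55 ± 0.07 SE, adjusted p = 1.99e-05, limma). Cd247, the zeta chain of the receptor complex, was 1.32-fold and the kinase Prkcq 1.28-fold higher in F5. Prkcq was not called without TG6 replicate 3 (adjusted p = 0.109). Cblb, a ubiquitin ligase that restrains the receptor, was 1.36-fold higher in TG6. Without TG6 replicate 3, 2 were higher in F5 (3.59% of all genes) and 5 in TG6 (5.04%), with Plcg1, Grap2 and Pag1 among those added to Cblb, and the median went from 0.01 to -0.10.

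Of 20 lineage and identity factors, 3 were called higher in F5 (2.14% of all genes) and 1 in TG6 (4.50%), with a median of 0.11. Tcf7 was at 54338, 52113 and 52804 in F5 and 32171, 28715 and 44057 in TG6. Satb1 was at 29113 to 34910 against 20574 to 24568, and Ets1 at 27406 to 32132 against 20617 to 23585. All of them kept their call without TG6 replicate 3 (adjusted p = 3.79e-07, 0.00125 and 0.00161). Zbtb7b, which directs cells to the CD4 lineage, was near 0 in F5, at 0, 1.21 and 0, and low in TG6, at 9.28, 7.79 and 29.7. With TG6 replicate 3 left out, Tcf12 was added as higher in F5.

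Receptor segments aside, the differences of Cdk19os and Amd1, which lie close together on chromosome 10, were among the largest in favour of F5. Cdk19os, an antisense transcript inside Cdk19 (chr10:40348508-40350103), was at 703, 1120 and 954 in F5 and 1.81, 1.82 and 2.45 in TG6. Amd1, which makes decarboxylated S-adenosylmethionine for polyamine synthesis (chr10:40287458-40302186), was at 21080, 19010 and 16462 against 1029, 1103 and 1582. Cdk19 itself (chr10:40339564-40483818) was at 2496 to 3046 against 1888 to 2175, and reads of overlapping genes may have been divided between them. Amd2, a close copy of Amd1 at chr10:35708675-35711892, was 17.6-fold higher in F5, and reads shared with Amd1 cannot be told apart from it. OT-1 cells were near TG6, with means of 1498 for Amd1 and 1.54 for Cdk19os, and F5 cells had means of 21638 and 1606 at the early stage.

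Other genes higher in F5 came singly. Ly6d, a surface protein, was at 963, 2596 and 1481 in F5 and 82.8, 47.8 and 431 in TG6. Il17rb, a receptor chain for interleukin-25, was at 946, 969 and 1171 against 171, 148 and 296. Nynrin was at 102, 89.2 and 121 against 5.27, 0 and 7.76. The adhesion molecule Chl1 was 6.78-fold and Adam11 4.15-fold higher in F5. H1fx, Gm37324, Gm3052 and RP23-6A14.10 completed the 12 genes that the rule for the largest differences named, which ranks receptor segments apart.

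Several of the largest differences in favour of TG6 were genes listed at 0 in F5. Of the genes tested, 40 were at 0 in all 3 F5 libraries and at 10 or more in all 3 TG6 libraries. Receptor segments such as Trbv1 were counted among them, and no gene had the reverse pattern. Kcnd2, a voltage-gated potassium channel gene, was listed at 0 in F5 and at 145, 101 and 104 in TG6, and OT-1 was also at 0. Gm10260 was at 0 in F5 and at 4645, 4299 and 4684 in TG6, and the gene models Gm11361 and Gm13443 behaved likewise. At the early stage these 4 genes were at 0 in F5 too, with TG6 means of 186, 1391, 257 and 169. Rps6-ps4, a processed pseudogene, was at 0 in F5 and 1034, 332 and 1341 in TG6, yet at the late stage its mean was 225 in F5 and 0 in TG6. Its reads may be shared with its parent gene and other copies.

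Ion channel genes that the study ties to low self-reactivity were called in both directions, 2 of 13 each way (2.14% of all genes for F5 and 4.50% for TG6). Once TG6 replicate 3 was left out, 1 was higher in F5 and 3 in TG6 (3.59% and 5.04% of all genes). Channel genes tied to high self-reactivity were not analysed here as a list. Cacnb1, a calcium channel subunit gene, was 1.72-fold higher in F5. Cacnb3 and Tmie were higher in TG6, at 35.5 to 53.0 against 86.6 to 130 and at 338 to 532 against 525 to 1312. Kcna2, a potassium channel gene, was at 1363, 1568 and 1917 in F5 and 3202, 3034 and 1222 in TG6. It was called higher in TG6 only without TG6 replicate 3 (adjusted p = 0.00467, limma), and with that library the adjusted p was 0.347. Cacnb1 was called only with it (adjusted p = 0.085 without). The study chose that list on libraries of this series, OT-1 among them. Summed counts of the list in mature cells were 2412 to 2839 in OT-1, 5311 to 7012 in F5 and 4665 to 8795 in TG6.

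Leaving out TG6 replicate 3 added 349 genes higher in F5 and 198 higher in TG6, and 222 calls were lost. The added genes with the largest differences in favour of F5 were Uaca, Tspan2, Zfp704, Gpr162 and Emp1. Zfp704 was at 670, 978 and 1329 in F5 and 184, 140 and 1288 in TG6. In favour of TG6 they were Prss36, 5830468F06Rik, Gm12505, Klrd1 and Cxcr6. Klrd1, the CD94 chain of an NK receptor, was at 71.6, 47.8 and 62.8 in F5 and 230, 231 and 129 in TG6. These 10 genes were chosen by how their calls changed without that library, so their values are a description.

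**Figure D4:**
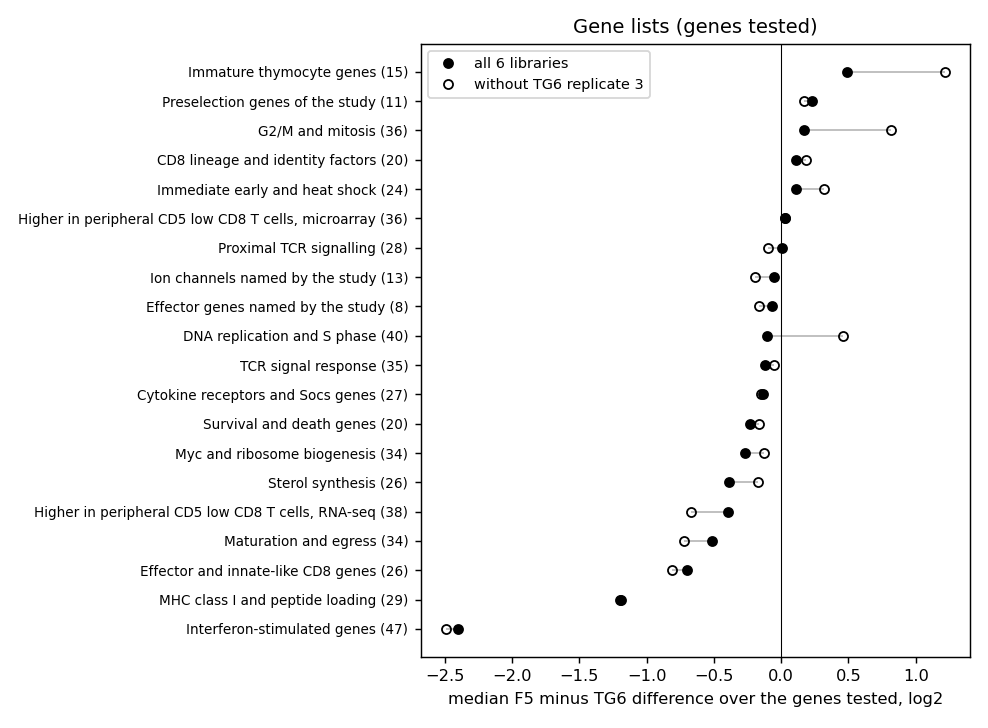
Median F5 minus TG6 difference (x axis, log2) of each pathway list with all 6 libraries (filled) and without TG6 replicate 3 (open), with the number of genes tested after each name. Of the lists drawn, the interferon-stimulated and class I lists lie lowest in both, and the immature, G2/M and S phase lists move most when that library is left out.

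The remaining lists held few calls, to be read against 2.14% of all genes higher in F5 and 4.50% in TG6, or 3.59% and 5.04% without TG6 replicate 3. Of 24 immediate early and heat shock genes none were called, with or without TG6 replicate 3. Of 26 sterol synthesis genes 3 were higher in TG6, Scd2 and Sc5d among them, and 2 without that library. Of 34 Myc and ribosome biogenesis genes Utp20 was higher in TG6, and without that library only Wdr12 was called, as higher in F5. Of 83 cytosolic ribosomal protein genes, F5 was higher for 1 and TG6 for 3, and without that library 1 was called each way. At the early stage F5 was higher for 25 of the 83 ribosomal genes (3.12% of all genes) and TG6 for none, and the difference moved toward TG6 by the mature stage for 38 (3.05%). In mature cells the libraries did not overlap, with TG6 higher, for 38 (10.2% of all genes). Of 8 effector genes that the study names, Ccr8 was higher in TG6, at 0, 0 and 1.00 against 26.3, 37.6 and 43.4. Of 2 lists of genes higher in peripheral CD8 T cells of low Cd5, both drawn from data on other cells, the microarray list had 2 of 36 genes higher in F5 and 4 in TG6, and the RNA-seq list 1 and 4 of 38 (2.14% and 4.50% of all genes). Without TG6 replicate 3 the microarray list had 3 and 8, and the RNA-seq list 2 and 7 (3.59% and 5.04% of all genes). Of 6 sex-linked genes 4 were tested and none were called.

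Markers of 8 other cell types were summed in each library. B cell sums were 7532 to 9029 in F5 and 6565 to 7414 in TG6. The defining B cell gene Cd79a was near 0, at 1.89 to 11.1 in the 6 libraries, and of 10 genes tested Cd79b was called higher in F5 (2.14% of all genes) and Blk in TG6 (4.50%), only Blk of them without TG6 replicate 3. Myeloid and dendritic sums were 877 to 1925 in F5 and 1968 to 3893 in TG6, with no gene called, and 8 of 19 markers under 10 in every library. Gamma delta sums were 8165 to 9047 in F5, where Trdc made most of them, and 2777 to 7015 in TG6. Of 11 of these genes tested, 5 were higher in TG6 (Tcrg-C4, Blk, Tcrg-C1, Cd163l1 and Sox13) and Trdc in F5 (4.50% and 2.14% of all genes). Without TG6 replicate 3, 2 were higher in TG6 (Blk and Cd163l1) and 2 in F5, Trdc among them (5.04% and 3.59% of all genes). Cd163l1 was at 136 to 159 in F5 and 450, 421 and 1029 in TG6. Their part in the results was not tested.

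The sums for NK and NKT cells ranged from 2914 to 3583 in F5 and 3513 to 3843 in TG6, and Ncr1, Klra4 and Zbtb16 were at 0 in all 6 libraries. Of 5 of these genes tested Eomes was called higher in TG6 (4.50% of all genes). CD4 and regulatory T cell sums were 4596 to 6373 and 4616 to 5283, and Foxp3 did not pass 35.2. Of 10 of these genes tested, 3 (Zbtb7b, Tnfrsf18 and St8sia6) were called higher in TG6 with and without TG6 replicate 3 (4.50% and 5.04% of all genes), and the median was -0.44. Thymic epithelial sums were 138 to 163 and 166 to 262, with Krt5, Krt14 and Foxn1 at 0 in every library. Of 7 tested Krt18 was called higher in F5 (2.14% of all genes) and Cdh1 in TG6 (4.50%). Erythroid sums were 3374 to 3948 and 2624 to 4183, and stroma and endothelium sums 2298 to 2627 and 2582 to 2714. Of 7 erythroid genes tested Car2 was called higher in F5, and only with TG6 replicate 3 included, and of 4 stroma genes none. By the exact permutation test the smallest two-sided p that 3 against 3 libraries allow is 0.1, and the B cell, myeloid, gamma delta and epithelial sums reached it. In bulk samples fewer cells of a type and less RNA per cell cannot be told apart.

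The interferon difference was small at early positive selection and large at late positive selection. At the early stage, summed interferon-stimulated genes were 28030 ± 1272 (SD) in F5 and 34645 ± 1090 (SD) in TG6, with n = 3 for both. At the late stage they were 35873 ± 3623 (SD, n = 3) and 88301 ± 11098 (SD, n = 2), and in mature CD8SP cells 32431 ± 2701 and 94792 ± 27366 (SD, n = 3 each). In F5 the early libraries were at 26853 to 29380 and the mature ones at 30436 to 35505, and in TG6 each mature library was above each early one. OT-1 sums went from 35217 ± 2526 (SD, n = 3) at the early stage to 65955 ± 3376 (SD, n = 3) in mature cells.

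**Figure D5:**
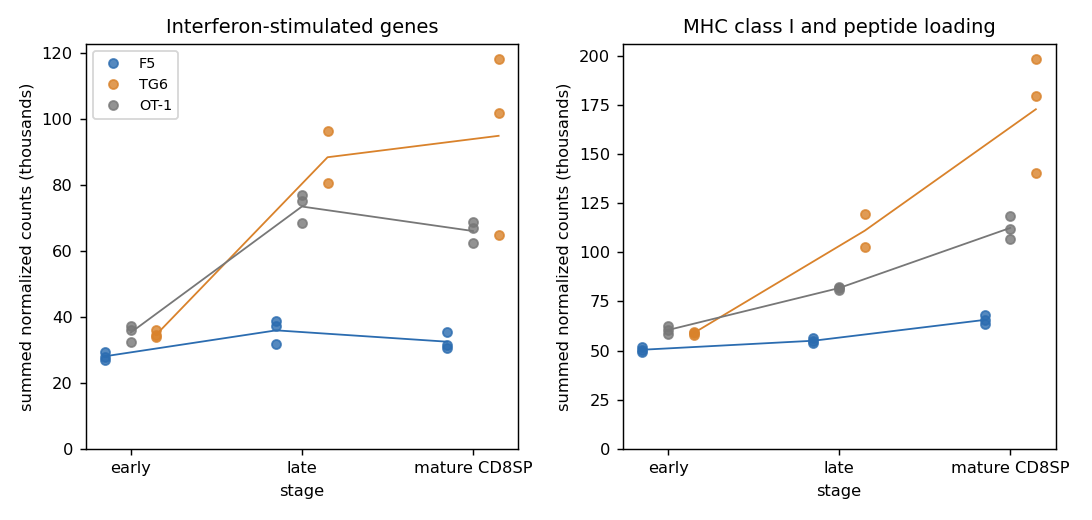
Summed normalized counts (y axes, in units of 1000, from 0) of interferon-stimulated genes and of class I MHC and peptide-loading genes in each library of F5, TG6 and OT-1 at 3 stages (x axis), with lines through the group means. The F5 points stay low while the TG6 and OT-1 points are higher at the late and mature stages than at the early stage.

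Gene by gene, 16 of the 47 interferon-stimulated genes were called higher in TG6 at the early stage (3.35% of all genes) and 41 at the late stage (3.23%). The median difference was -0.54 at the early stage and -2.14 at the late stage. The difference between the lines differed between the mature and early stages for 39 of the 47, all toward TG6 (3.05% of all genes). Between the mature and late stages it differed for 1, Epsti1 (-1.02 ± 0.19 SE, adjusted p = 0.0303, limma), against 0.116% of all genes in either direction. Ifit3b had a difference of 0.32 at the early stage and -6.63 in mature cells.

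Class I genes followed a like course. Of the 29 tested, 10 were called higher in TG6 (3.35% of all genes) and 1 in F5 (3.12%) at the early stage, and 23 were higher in TG6 at the late stage (3.23%). The medians were -0.13 and -0.92. For 19 of them the difference differed between the mature and early stages, all toward TG6 (3.05% of all genes). Their summed counts in F5 were 50427 ± 1271 (SD, n = 3) at the early stage and 65610 ± 2354 (SD, n = 3) in mature cells, and in TG6 58931 ± 730 (SD, n = 3) and 172853 ± 29725 (SD, n = 3). Maturation and egress genes had a median difference of 0.33 at the early stage, where 5 were called higher in F5 (3.12% of all genes) and 4 in TG6 (3.35%). Between the early and mature stages the difference moved toward TG6 for 14 of the 34 (3.05% of all genes) and toward F5 for 1 (1.35%).

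Over all genes, the difference between F5 and TG6 in mature cells differed from that at the early stage for 721 genes (4.40%), 221 toward F5 and 500 toward TG6. It differed from that at the late stage for 19 genes (0.116%), 4 toward F5 and 15 toward TG6, with only 2 TG6 libraries at that stage. Of the 737 genes higher in TG6 mature cells, 391 were called in the same direction at the late stage and 203 at the early stage. Of the 350 higher in F5, 121 and 89 were. Over all 16372 genes, 528 were higher in TG6 at the late stage and 548 at the early stage, and 286 and 510 were higher in F5. Among all called genes 36 were called in the opposite direction at the early stage and 1 at the late stage.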

How the data were processed

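RNA of sorted thymocytes was sequenced in 26 libraries of 9 groups. The authors deposited 1 table of normalized counts (unit: signal) per gene symbol, made with Trimmomatic 0.32, Bowtie2 2.3.2 and RSEM 1.2.31 on mm10 and scaled by DESeq2's median of ratios, per the labels and methods. The methods state a nominal sequencing depth for the series. Whole reads could not be recovered, so the depth of each library is unknown and no counting interval is given. Genes reaching 10 in 2 or more libraries were fitted on log2(value + 1) with limma 3.58.1 in R 4.3.3, with 9 group means, 17 residual degrees of freedom, a trended prior variance and Benjamini-Hochberg adjustment over all 16372 genes. The test assumes that log2 values vary alike in all groups. The pseudocount understates the change of low genes. Stage differences are interaction contrasts in the same fit. The steps were tested on simulated data with known changes. Summed lists were compared by an exact two-sided permutation test. Libraries of a group are biological replicates per the authors' methods.

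The members and lists were chosen with earlier results of these data known. Genes are named by rule: the 12 per direction with the largest difference that were called with and without TG6 replicate 3, did not overlap and had a mean of at least 100 in the higher group, the 5 per direction called only without that library, up to 4 called members per list and direction together with defining members, the highest receptor segments, and called genes near Rag1 and in the MHC. Other list members named in the text, whether called or not, were chosen after their values were seen. Positions (GRCm38) were found for 15578 of the 16372 genes. Alternatives were other pseudocounts (0.1 and 5), filters, scalings, a fit on only the libraries compared, no prior trend, array weights, a replicate block and leaving out each library. Computation also used Python 3.11.15, pandas 2.3.3, numpy 2.4.6 and matplotlib 3.10.9. Some genes are not reported here by name, although the counts over lists include them.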

Additional observations from a re-analysis of the deposited data

Results flagged for a closer look

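The difference between F5 and TG6 differed between stages for some genes, by interaction contrasts in limma. It differed between mature and early cells for 721 genes and between mature and late cells for 19, each at an adjusted p under 0.05. All values are the mature difference minus the earlier one on the log2 scale, negative where it moved toward TG6.

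Against the late stage, the change was -1.02 for Epsti1, an interferon-stimulated gene, -4.30 for Ly6c2, -1.37 for Igsf23 and -1.38 for H2-T22, a class I gene. Il2rb, a chain of the receptors for interleukin-2 and interleukin-15, moved toward F5 by 3.12. Amd1 changed by -1.42 and the pseudogene Rps6-ps4 by -15.87.

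Against the early stage, the interferon-stimulated genes changed by -2.73 for Oas1a, -4.79 for Ifi27l2a, -6.95 for Ifit3b and -4.62 for Iigp1. The class I genes H2-Q6 and Gm8909 changed by -2.88 and -2.64. Amd1 changed by -1.03, Gm11361 by -1.92, Prss36 by -3.93 and Rps6-ps4 by -15.92. Values at or near 0 in a group enter several of these, and their size then depends on the pseudocount.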

How the results depend on the processing

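Against 1087 calls, 346 genes were called when only the 6 libraries compared were fitted (4 residual degrees of freedom), 39 higher in F5 and 307 in TG6. With array weights 2719 were called, 1200 and 1519. The balance of directions depended on the scaling. Total scaling gave 463 genes higher in F5 and 635 in TG6, and quantile normalization 476 and 660, against 350 and 737 in the main fit. Leaving out 1 library at a time gave 819 to 1412 calls, 216 to 587 higher in F5 and 582 to 825 in TG6. The lowest count for F5 came without F5 replicate 3 and the highest without TG6 replicate 3. The 721 genes whose difference differed between the mature and early stages became 390 with only F5 and TG6 libraries, 1912 with array weights and 517 to 930 without 1 library. The 19 between the mature and late stages became 43 with a pseudocount of 5, 38 with no filter, 5 with only F5 and TG6 libraries, 87 with array weights and 14 to 34 without 1 library (34 without TG6 replicate 3). With only the libraries compared, 15 rather than 25 class I genes and 8 rather than 15 maturation genes were called, and with a minimum mean of 50, 2 rather than 10 effector genes. Trbv12-1, not called at 0.33, was at -0.41 with array weights and from -0.58 (without TG6 replicate 3) to 0.79 (without TG6 replicate 1) without 1 library. With the replicate number as a block, 1162 genes were called. Deviations of same-numbered F5 and TG6 libraries from their group means correlated at 0.060, -0.223 and -0.151. With 3 libraries per group, these values cannot show whether the numbers pair the libraries. Of 196 named genes, 108 kept direction and call in every alternative. The causes were not tested. The depth of each library is unknown, which limits statements on genes listed at 0.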
